A study of Homo sapiens with 145 samples.

Results

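The genes described here encode the SR proteins, the hnRNP proteins and the main factors that work with them at the 3′ splice site. They were chosen by gene family: the SRSF genes, the SR-like genes TRA2A and TRA2B, the CLK kinases, the HNRNP genes, the U2AF subunits, and the SF3A and SF3B subunits. Of 50 genes with such names on the array, 49 passed the filter on low values, among 12070 genes measured. By family these were 11 of 12 SR protein genes, both TRA2 genes, 4 CLK genes, 21 hnRNP genes, both U2AF genes and 9 SF3 genes. The gene left out was SRSF12, whose highest log2 value on any array was 3.51, under the minimum of 4. The lowest gene kept was HNRNPA1L2, with a mean log2 value of 5.61.

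SR proteins carry an RNA-binding domain and a tail rich in arginine and serine; they bind exonic enhancers and help U2AF and the U1 and U2 snRNPs to recognise splice sites, whereas many hnRNP proteins coat pre-mRNA and repress the use of nearby sites. The CLK kinases phosphorylate the SR tail, and the SF3A and SF3B complexes belong to the U2 snRNP and hold the branch point. Many SR and hnRNP genes limit their own mRNA through alternative exons that send the transcript to nonsense-mediated decay.

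The cells were HT-1080, a human fibrosarcoma line. They were exposed for 24 h to one of 3 chemicals in medium with 0.1% DMSO, or to the DMSO vehicle alone. Etoposide (ETP) inhibits topoisomerase II and was given at 0.003, 0.01, 0.03, 0.1, 0.3, 1 and 3 µM. Methyl methanesulfonate (MMS) alkylates DNA and was given at 1, 3, 10, 30, 100, 300 and 500 µM. Quercetin (QUE), a plant flavonol, was given at 1, 3, 10, 30, 60, 80 and 100 µM. Each chemical had its own vehicle group, so that 145 arrays fell into 24 groups. The labels number the samples of a group from 1 to 6 but do not say that the numbers are separate cultures, so p-values measure only the spread between these samples, which may be technical. The number of arrays limits the precision. Only total RNA of whole cultures was measured, and in such bulk samples fewer cells and less RNA per cell cannot be told apart.

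The arrays numbered 2 in the ETP and QUE experiments went against their labels. Over all genes, the change of ETP 3 µM number 2 against its own vehicle array correlated at 0.30 with the mean change of the other ETP 3 µM arrays and at 0.90 with that of QUE 100 µM. For QUE 100 µM number 2 the same correlations were 0.89 with ETP 3 µM and 0.39 with QUE 100 µM. Both sets numbered 2 were therefore left out, which left 5 replicates in each ETP and QUE group, and results are given with them where a call changed. In the QUE experiment number 3 stood apart most at 100 µM, where its change correlated at 0.55 with the mean change of the others. That of number 1 correlated at 0.73, and those of numbers 4, 5 and 6 at 0.90, 0.93 and 0.92. The QUE results are also given without number 3. MMS groups had 6 replicates, except 5 at 500 µM. Among the fibroblast and mesenchymal markers VIM lay between 13.02 and 13.39 on the log2 scale over the single vehicle arrays. On the same arrays FN1 lay between 11.8 and 12.8 and CD44 between 12.09 and 12.61. The epithelial and blood markers measured were at or under 3.5 there. In vehicle the splicing factor genes had median log2 values of 10.62, 9.88 and 10.43 in the ETP, MMS and QUE experiments, against 7.63, 6.99 and 7.44 over all genes.

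Across the 21 doses, 16 of the 49 genes were called at least once and 33 never, while 55.2% of all genes were called at least once. A gene is called here where its adjusted p against vehicle was under 0.05 (limma, Benjamini-Hochberg over all 12070 genes) and its change was at least 1.5-fold; a gene that passed is one with an adjusted p under 0.05 at any size. At any dose QUE called 14 of the genes (33% of all genes), ETP 5 (14.7%) and MMS 2 (36.4%), and only HNRNPA2B1, an abundant hnRNP of the A/B type, was called under all 3 chemicals. Of the others, 12 were called under 1 chemical and 3 under 2. Most of the moves were falls in SR and hnRNP genes, and the rises that were called were those of CLK3, HNRNPA1L2 and SF3B4.

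**Figure D1:**
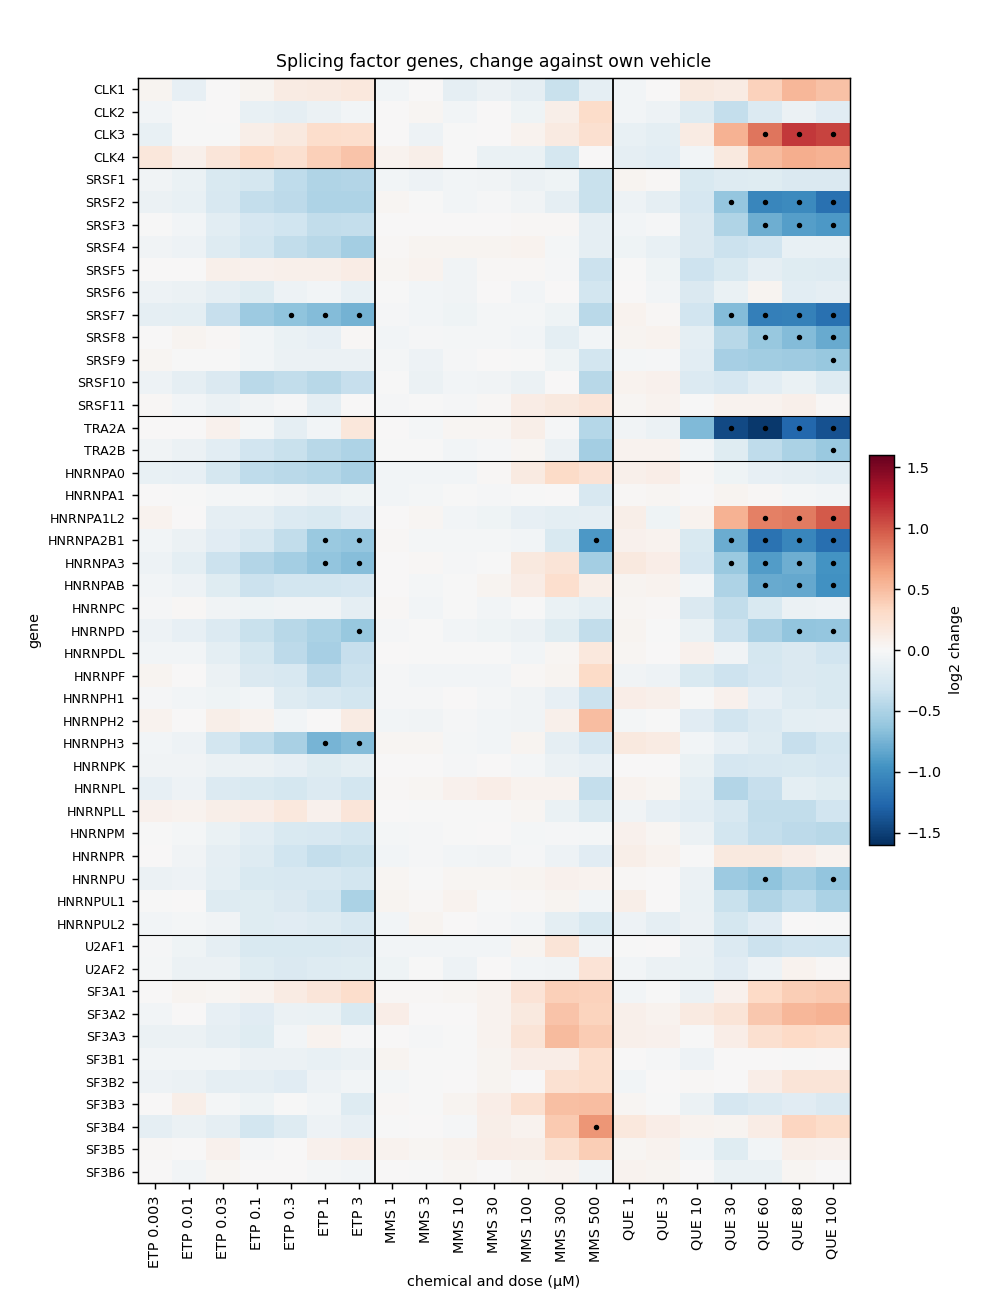
Change of each of the 49 genes against its vehicle group on the log2 scale, one block of columns per chemical, with doses in µM from left to right and genes grouped by family; colour runs from blue (lower) to red (higher) and dots mark called genes. Falls at high doses are spread over SR and hnRNP rows under ETP and QUE, while under MMS the SF3 rows are higher at 300 and 500 µM.

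Under ETP, none of the genes was called at the 4 doses up to 0.1 µM, where limma called 0%, 0%, 0.63% and 3.74% of all genes in either direction and gave 0, 1, 12 and 23 of the 49 an unadjusted p under 0.05. At 0.1 µM 13 of 49 passed in the lower direction and 0 in the higher, while 8.08% of all genes passed in the lower direction. At 0.3 µM 1 gene was called (4.56% of all genes), at 1 µM 4 (8.9%) and at 3 µM 5 (13.2%). All of these were lower, and 1.53%, 3.73% and 6.92% of all genes were called lower at those doses. The shift was broad but small: at 3 µM 24 of the 49 passed lower and 4 higher, beside 20.5% lower and 20.9% higher over all genes, and their median change was -0.21 against 0.01. Between 0.3 and 3 µM none was called (3.67% of all genes; 7 of the 49 had an unadjusted p under 0.05 by limma). With number 2 kept, HNRNPH3 was not called at 1 µM, HNRNPD and HNRNPH3 were not called at 3 µM, and SRSF2 was.

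MMS gave its calls only at the top dose. From 1 to 30 µM 0 of the 49 and 0% of all genes were called, and at most 1 of the 49 had an unadjusted p under 0.05 by limma. At 100 µM 0 of the 49 were called (1.61% of all genes; 3 with an unadjusted p under 0.05 by limma), and at 300 µM again 0 (12.2%; 13 by the unadjusted p). At 500 µM 2 were called, 1 higher and 1 lower, where 34.6% of all genes were, 17.7% higher and 16.9% lower. At that dose 13 passed higher and 16 lower, with 33.9% and 27.3% of all genes, and the median change was -0.13 against 0.05. From 300 to 500 µM 2 genes fell, HNRNPA2B1 and HNRNPA3 (18.7% of all genes were called in that step).

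The calls under QUE began at 30 µM. At 1 and 3 µM 0 were called (0.0331% and 0.0911% of all genes; 0 with an unadjusted p under 0.05 by limma). At 10 µM again 0 were called (1.78% of all genes; 6 of the 49 with an unadjusted p under 0.05 by limma). At 30 µM 5 were called, all lower (17% of all genes, 8.64% lower). At 60 and at 80 µM 2 were called higher and 9 lower (25.4% and 24.5% of all genes, 12.7% and 11.4% higher and 12.7% and 13.1% lower), and at 100 µM 2 higher and 12 lower (27.6%). The 12 falls at 100 µM were 12 of 49, where 14.5% of all genes were called lower, and the 2 rises stood beside 13.1% called higher. There 19 of the 49 passed lower and 6 higher, beside 24.7% and 25.8% of all genes. The median change there was -0.21 against 0 over all genes. From 30 to 100 µM none was called (3.92% of all genes), though 17 had an unadjusted p under 0.05 by limma. With number 2 kept, the counts at 30, 60, 80 and 100 µM were 3, 10, 10 and 11: HNRNPA3 and SRSF2 were not called at 30 µM, SRSF8 not at 60 or 80 µM, and HNRNPU, SRSF9 and TRA2B not at 100 µM. Without number 3 they were 3, 10, 13 and 15, where 17.1%, 25.4%, 26.3% and 29.5% of all genes were called. From 30 to 100 µM 5 genes were called without number 3 (7.96% of all genes). The shares of all genes with number 2 kept were not worked out.

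SRSF7 is an SR protein with a zinc knuckle that also acts in mRNA export and 3′ end processing. By its brightest probe set, used here, it was the first SR gene to be called under ETP. By the mean of its kept probe sets it was not called at 0.3, 1 or 3 µM. Its log2 values in the 5 ETP vehicle arrays were 11.68, 11.09, 11.15, 11.16 and 11.38, and at 3 µM 10.84, 10.30, 10.20, 10.59 and 10.74. Every dosed array lay below every vehicle array, and the numbers kept part of their order, number 1 being highest in both groups. The mean went from 11.29 ± 0.24 to 10.53 ± 0.28 (SD, n = 5 each), a fall of 1.69-fold (log2 change -0.76, SE 0.15, adjusted p = 7e-05). SRSF7 was already called at 0.3 µM, by -0.64 (adjusted p = 0.0016), and passed at 0.1 µM. That call at 0.3 µM was lost without vehicle number 1 or without 0.3 µM number 4. Lower without overlap were 18 of the 49 at ETP 3 µM and 5 at MMS 500 µM, beside 11.9% and 17.6% of all genes. Higher without overlap were 3, 5 and 3 of the 49 at ETP 3, MMS 500 and QUE 100 µM, beside 11.9%, 21.1% and 14.1%.

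SRSF7 was called lower under QUE as well. Its QUE vehicle values were 11.50, 10.98, 10.85, 11.16 and 11.19, and at 100 µM it read 10.61, 10.05, 9.49, 9.67 and 9.83. The groups did not overlap, and number 1 was again the highest array on both sides. The change was -1.20 on the log2 scale (SE 0.21, adjusted p = 1.6e-05), or 2.3-fold lower. Its difference from the change at ETP 3 µM was -0.45 (SE 0.26, adjusted p = 0.18 by limma) and was not called. Under MMS SRSF7 passed at 500 µM at -0.43 and was not called.

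SRSF2 (SC35), an SR protein that acts on enhancers in exons and in transcription elongation, followed under QUE. Its vehicle values were 11.98, 11.31, 11.18, 11.45 and 11.55, and at 100 µM 10.91, 10.30, 9.87, 10.23 and 10.23. All dosed arrays lay below all vehicle arrays. It fell by 1.19 on the log2 scale (SE 0.20, adjusted p = 7.3e-06), 2.27-fold. Under ETP at 3 µM it passed at -0.50 without reaching 1.5-fold, and under MMS at 500 µM at -0.36.

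Another 3 SR genes fell at QUE 100 µM without overlap with vehicle. At that dose 9 of the 49 were lower without overlap, beside 13.6% of all genes. SRSF3, the smallest SR protein, went from 12.18 ± 0.18 to 11.26 ± 0.44 (SD, n = 5 each; change -0.92, adjusted p = 5.7e-04). SRSF8, a close relative of SRSF2, went from 9.42 ± 0.08 to 8.62 ± 0.12 (-0.81, adjusted p = 4.1e-08), and SRSF9, a short SR protein, from 11.23 ± 0.07 to 10.61 ± 0.19 (-0.61, adjusted p = 7.6e-07). The call of SRSF9 was lost with number 2 kept and without 100 µM number 5 or 6. Under ETP 3 µM the change of SRSF8 was 0.02 (SE 0.10, adjusted p = 0.88) and that of SRSF9 -0.10 (SE 0.05, adjusted p = 0.11). In all, 5 of 11 SR genes were called lower at QUE 100 µM (14.5% of all genes) and 6 passed lower (24.7%). At ETP 3 µM 1 of 11 was called lower (6.92%) and 6 passed lower (20.5%). At MMS 500 µM 0 were called and 6 passed lower (27.3%), and no SR gene passed higher at any of these doses. SRSF11 was among the genes that moved least under ETP, with a change of 0.00 at 3 µM by its brightest probe set. Another of its probe sets was called lower there, as described with the probe sets.

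Some of the promoters of the genes that QUE lowered hold the letters TATAAA, and are shown because the match falls where a TATA box usually sits. The windows below are the 250 bases before the annotated start on the gene's own strand, 5′ to 3′, from RefSeq on GRCh38.p14, with the match in capitals. SRSF7 lies on the minus strand at chr2:38751362-38751611, with the first letter of the match 27 bases before the start, in 1 of its 2 windows. SRSF3 lies on the plus strand at chr6:36594112-36594361, with the match beginning 30 bases before the start.
SRSF7: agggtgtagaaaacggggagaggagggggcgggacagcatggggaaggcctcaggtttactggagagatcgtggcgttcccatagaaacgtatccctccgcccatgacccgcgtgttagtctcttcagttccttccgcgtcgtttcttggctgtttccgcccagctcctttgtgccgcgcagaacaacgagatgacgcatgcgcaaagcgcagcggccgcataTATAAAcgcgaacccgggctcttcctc
SRSF3: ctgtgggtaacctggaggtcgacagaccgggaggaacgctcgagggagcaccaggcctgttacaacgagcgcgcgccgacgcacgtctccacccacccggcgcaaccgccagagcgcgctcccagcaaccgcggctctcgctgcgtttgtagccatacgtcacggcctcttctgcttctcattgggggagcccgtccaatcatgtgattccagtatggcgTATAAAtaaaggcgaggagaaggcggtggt
A window was at hand for 45 of the 49 genes. TATAAA on the gene strand was in 4 of the 10 genes with a window that were called lower at QUE 100 µM (HNRNPAB, HNRNPD, SRSF3 and SRSF7), in 1 of the 35 others (HNRNPC), and in 6.8% of all windows of this length; a gene counts where any of its windows holds the letters, as 8.4% of all genes do. The letters were searched for after the values had been seen, and a match is a description, not a site in use.

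TRA2A, which binds GAA-rich exonic enhancers, had the largest change of all the genes and was called only under QUE. In the 5 QUE vehicle arrays it read 8.85, 8.31, 8.02, 8.64 and 8.69, at 30 µM 7.69, 6.57, 6.65, 7.10 and 7.27, and at 100 µM 7.36, 8.55, 6.44, 6.54 and 6.61. At 30 µM every array lay below vehicle; at 100 µM the groups overlapped, because number 3 was as high as vehicle while the other 4 arrays were all below it. The change was -1.45 at 30 µM (SE 0.33, adjusted p = 7.6e-04), -1.54 at 60 µM and -1.40 at 100 µM (SE 0.33, adjusted p = 6.2e-04). Without number 3 the change at 100 µM was -1.81 (SE 0.27, adjusted p = 2.2e-06). Under ETP 3 µM the change was 0.18 (SE 0.20, adjusted p = 0.50), and under MMS 500 µM TRA2A passed at -0.46 (adjusted p = 0.022).

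TRA2B, its paralogue, was lower at the highest dose of each chemical. By its brightest probe set TRA2B was called only at QUE 100 µM, at -0.60 (SE 0.19, adjusted p = 0.0094). That call was lost with number 2 kept and in 6 of the 10 fits without 1 replicate. Those were the fits without vehicle number 1, 5 or 6 or 100 µM number 4, 5 or 6. TRA2B passed without being called at ETP 3 µM (-0.50) and MMS 500 µM (-0.54). At MMS 500 µM it was called without MMS vehicle number 5 or without 500 µM number 6. Its other probe sets are described with the probe sets.

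**Figure D2:**
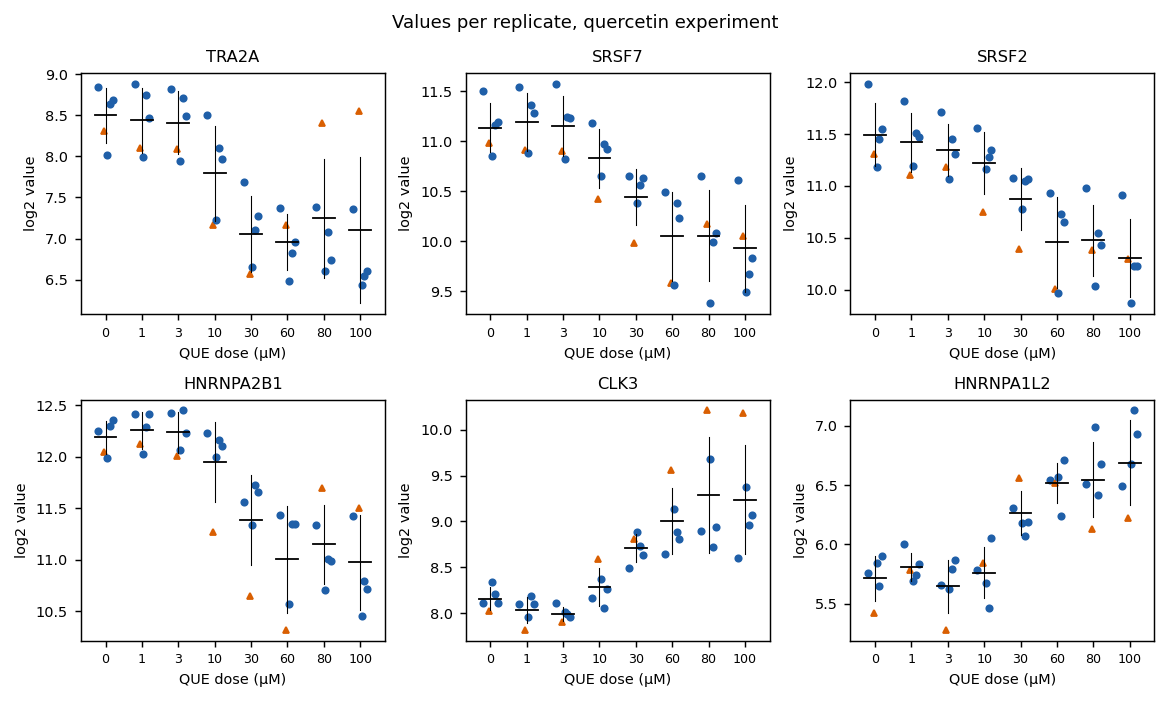
Log2 value of 6 genes in each replicate of the QUE experiment against dose in µM, with vehicle at 0; circles are replicates, orange triangles are replicate number 3, the horizontal line is the group mean and the vertical line its SD (n = 5). TRA2A, SRSF7, SRSF2 and HNRNPA2B1 are lower from 30 µM on, CLK3 and HNRNPA1L2 are higher, and at 80 and 100 µM number 3 lies near vehicle for TRA2A and above all other arrays for CLK3.

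Among the hnRNP genes, HNRNPA2B1 was called under each chemical. In the ETP vehicle arrays it read 12.47, 12.14, 12.25, 12.38 and 12.44, and at 3 µM 11.85, 11.50, 11.66, 11.81 and 11.74. The groups did not overlap, and the change was -0.62 (SE 0.09, adjusted p = 7.9e-07); it fell short of 1.5-fold without 3 µM number 3. In the QUE vehicle arrays the values were 12.25, 12.05, 11.99, 12.30 and 12.36, and at 100 µM 11.42, 11.50, 10.45, 10.79 and 10.71. Again all dosed arrays were lower, numbers 1 and 3 the least so; the change was -1.21 (SE 0.22, adjusted p = 2.3e-05).

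Under MMS the 6 vehicle arrays of HNRNPA2B1 ran from 11.74 through a median of 12.02 to 12.11, and the 300 µM arrays from 10.98 through 11.88 to 11.94. At 500 µM they were 11.03, 11.49, 11.20, 10.28 and 11.30. All 5 lay below vehicle, and number 5 was the lowest array in each of these 3 groups. The change was -0.92 (SE 0.14, adjusted p = 3.3e-07), and the fall from 300 to 500 µM was called at -0.67 (SE 0.14, adjusted p = 1.2e-04), but not without 500 µM number 5. These values come from the gene's brightest probe set, and its other probe sets did not all follow, as described with the probe sets.

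HNRNPA3, a relative of HNRNPA2B1, had the smallest SE among the calls under ETP. Its vehicle values were 10.32, 10.22, 10.48, 10.25 and 10.27, and at 3 µM 9.64, 9.67, 9.74, 9.53 and 9.56. The change was -0.68 (SE 0.06, adjusted p = 3.4e-12), with no overlap, and HNRNPA3 was the one splicing factor gene that passed at 0.03 µM, where 1.2% of all genes passed lower. At QUE 100 µM it fell by 0.96 on the log2 scale (SE 0.21, adjusted p = 3.1e-04), with groups that overlapped. At MMS 500 µM it passed at -0.54 and was called only without 500 µM number 6, and from 300 to 500 µM it was called at -0.74 (SE 0.08, adjusted p = 1e-09).

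HNRNPH3, of the F/H type that binds G runs, and HNRNPD (AUF1), which binds AU-rich elements and acts in mRNA decay, were the other hnRNP genes called under ETP. HNRNPH3 read 10.85, 10.46, 10.73, 10.64 and 10.83 in vehicle and 10.11, 9.90, 9.98, 10.09 and 10.00 at 3 µM. Its groups did not overlap, and the change was -0.69 (SE 0.09, adjusted p = 1.8e-07). HNRNPD went from 12.03 ± 0.12 to 11.42 ± 0.12 (SD, n = 5 each), by -0.61 (SE 0.07, adjusted p = 1.2e-08), also without overlap; the call was lost without vehicle number 1 or 3 µM number 4. HNRNPD was called at QUE 100 µM too, at -0.62 (adjusted p = 3.2e-04), a call lost without QUE vehicle number 1 or 100 µM number 3 or 4. HNRNPH3 was not called under QUE.

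**Figure D3:**
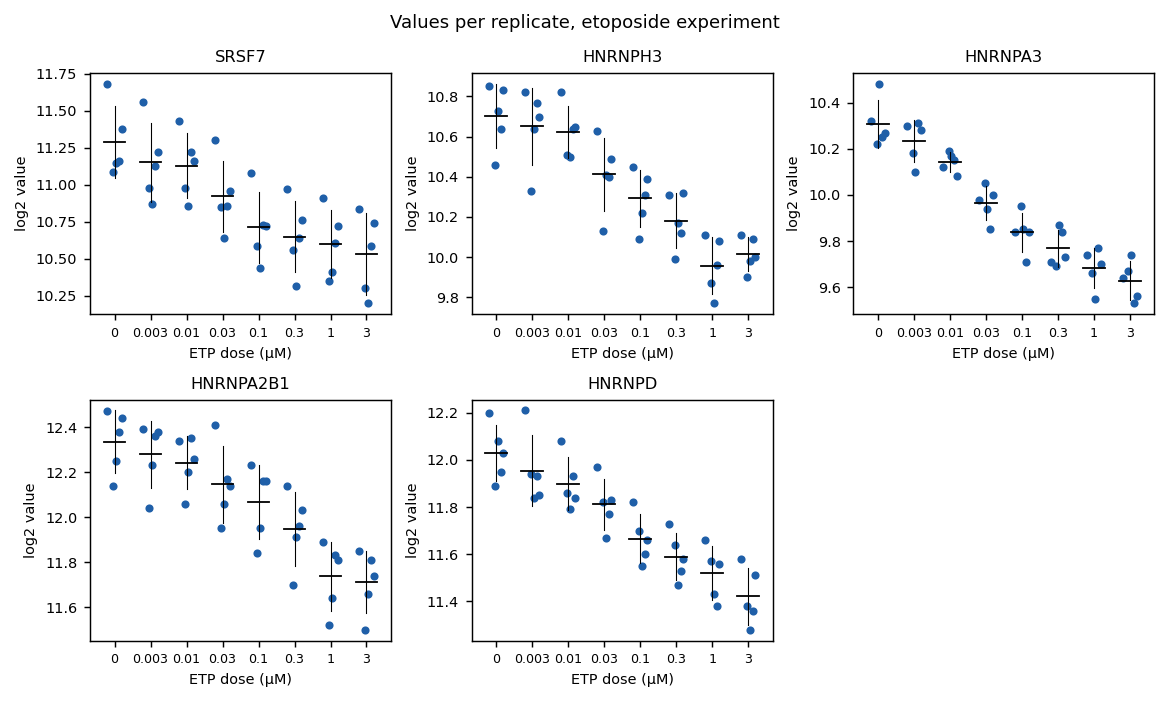
Log2 value of the 5 genes called at ETP 3 µM in each replicate against dose in µM, with vehicle at 0; circles are replicates, the horizontal line is the group mean and the vertical line its SD (n = 5). At 1 and 3 µM every replicate of SRSF7, HNRNPH3, HNRNPA3 and HNRNPA2B1 lies below every vehicle replicate.

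QUE called a further 2 hnRNP genes lower and 1 higher at 100 µM. HNRNPAB, another A/B-type protein, went from 11.44 ± 0.26 to 10.47 ± 0.45 (SD, n = 5 each; change -0.97, SE 0.24, adjusted p = 0.0011), and number 1 of the dosed arrays overlapped with vehicle. HNRNPU (SAF-A), a nuclear scaffold protein, went from 11.92 ± 0.17 to 11.29 ± 0.21 (-0.63, adjusted p = 1.3e-04), without overlap. HNRNPA1L2, a retrocopy nearly identical to HNRNPA1, read 5.76, 5.42, 5.84, 5.65 and 5.90 in vehicle and 6.49, 6.22, 6.68, 7.13 and 6.93 at 100 µM. All dosed arrays were higher, and the change was 0.98 (SE 0.15, adjusted p = 1.9e-06). Because the array may not separate HNRNPA1L2 from HNRNPA1 and similar copies, this rise is uncertain; the value for HNRNPA1 itself was -0.05. The call of HNRNPU was lost with number 2 kept, without vehicle number 1 or without 100 µM number 4.

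Over the 21 hnRNP genes, ETP 3 µM called 0 higher and 4 lower (6.92% of all genes lower) and 14 passed lower (20.5%). QUE 100 µM called 1 higher and 5 lower (14.5% lower) and 10 passed lower (24.7%). MMS 500 µM called 1 lower (16.9%), while 8 passed lower (27.3%) and 3 higher (33.9%). The genes with the smallest changes included HNRNPUL2 at QUE 100 µM (-0.01), and HNRNPM (-0.03) and HNRNPUL1 (-0.04) at MMS 500 µM.

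Of the CLK kinases, CLK3 rose under QUE. Its vehicle values were 8.11, 8.02, 8.34, 8.21 and 8.11, and at 100 µM 8.60, 10.18, 9.37, 8.96 and 9.07. Each dosed array was above each vehicle array, and number 3 was highest by a margin. The mean went from 8.16 ± 0.12 to 9.24 ± 0.60 (SD, n = 5 each), a change of 1.08 (SE 0.21, adjusted p = 8.4e-05); without number 3 it was 0.81 (SE 0.15, adjusted p = 5e-05). CLK3 was also called at 60 µM (0.85, adjusted p = 0.0014) and 80 µM, and passed without being called at ETP 3 µM (0.27) and MMS 500 µM (0.26).

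The other CLK genes were not called at any dose. CLK4 rose within the 1.5-fold limit at QUE 100 µM, by 0.55 (adjusted p = 0.006). It did so too at ETP 3 µM, by 0.45 (adjusted p = 0.016), where its arrays read 7.03, 7.37, 7.41, 7.46 and 7.67 in vehicle and 7.70, 7.86, 7.97, 7.80 and 7.86 dosed, with no overlap. CLK1 had a change of 0.47 at QUE 100 µM (SE 0.21, adjusted p = 0.06). Without QUE 100 µM number 1 both CLK1 and CLK4 were called there, and without QUE vehicle number 6 CLK4 was. CLK4 was among the 3 genes that moved least at MMS 500 µM, with a change of 0.00. In the fits without 1 replicate its adjusted p at ETP 3 µM ran from 0.0088 to 0.067 by limma, so it did not always pass. These CLK4 changes come from its brightest probe set, the highest of its 3 each time. The 3 ran from -0.10 to 0.45 at ETP 3 µM, from -0.05 to 0.55 at QUE 100 µM and from -0.46 to 0.00 at MMS 500 µM.

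The U2AF genes, whose products bind the polypyrimidine tract and the AG at the 3′ splice site, were not called at any dose. U2AF1 passed at ETP 3 µM at -0.23 and at QUE 100 µM at -0.32; U2AF2 passed at none of the 21 doses.

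Most SF3 genes were higher under MMS. At 500 µM 8 of 9 passed in the higher direction and 0 in the lower, where 33.9% of all genes passed higher; at 300 µM 7 of 9 passed higher, where 19.6% did. Their median change was 0.38 at 300 µM and 0.37 at 500 µM, beside 0.03 and 0.05 over all genes. Setting the SF3 genes apart was decided after their values had been seen, so the counts are a description. At 500 µM 8 passed under each of the 11 ways of leaving out 1 array and in the fit blocked by number. At 300 µM 5 to 7 did, 5 without vehicle number 5 or 300 µM number 1, and 8 in the blocked fit.

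SF3B4 (SAP49), which contacts RNA next to the branch point, was the one SF3 gene called. Its MMS vehicle arrays ran from 7.12 through a median of 7.52 to 7.69, the 300 µM arrays from 7.55 through 7.96 to 8.17, and the 500 µM arrays were 8.10, 8.25, 8.27, 7.91 and 8.40. The 500 µM arrays were all above vehicle, while those at 300 µM overlapped with it. The mean went from 7.47 ± 0.20 (SD, n = 6) to 8.19 ± 0.19 (SD, n = 5), a rise of 1.64-fold (log2 change 0.71, SE 0.15, adjusted p = 8.5e-05).

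A further 7 SF3 genes rose by less than 1.5-fold. SF3B3, which with SF3B1 forms the core of the SF3B complex, ran in vehicle from 7.97 through a median of 8.23 to 8.40, and at 500 µM from 8.36 to 8.92. The groups overlapped by a narrow margin, and SF3B3 passed at 0.49 (adjusted p = 7e-06). SF3B1, the branch-point subunit that is often mutated in myelodysplasia, passed at 0.27, and SF3A1 and SF3A3 of the SF3A complex passed at 0.37 and 0.41. SF3B6, which sits at the branch adenosine, had a change of -0.06 and did not pass. Under ETP 3 µM 1 of the 9 passed higher and 2 lower, beside 20.9% and 20.5% of all genes, and SF3A3 was at -0.02. Under QUE 100 µM 3 of the 9 passed higher, where 25.8% of all genes did. These were SF3A2 at 0.56, SF3A1 at 0.42 and SF3A3 at 0.28, while SF3B1 and SF3B6 were both at 0.00.

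**Figure D4:**
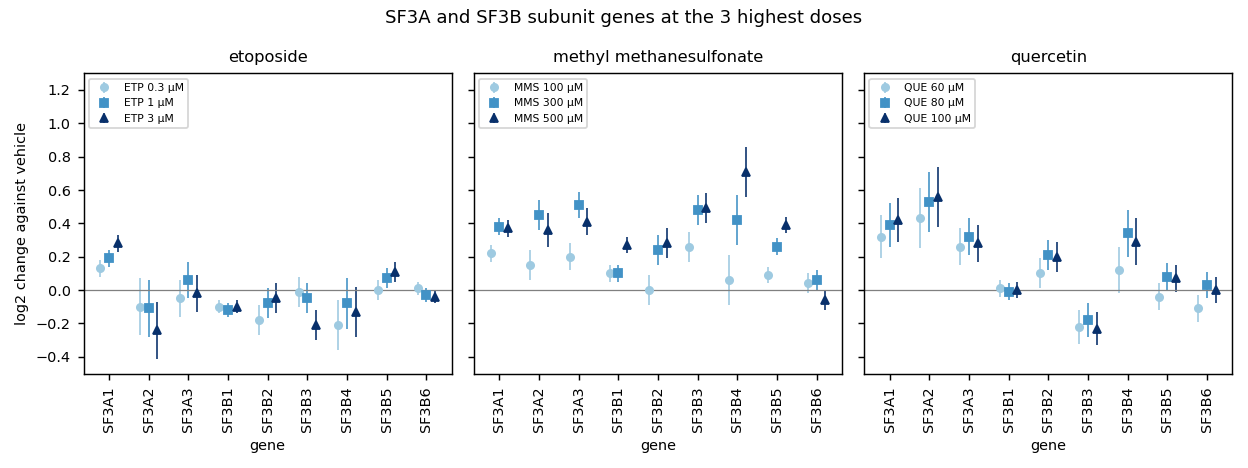
Change of the 9 SF3A and SF3B genes against vehicle on the log2 scale at the 3 highest doses of each chemical; points are fitted changes and bars their SE. Under MMS the points at 300 and 500 µM lie above 0 for all genes except SF3B6 at 500 µM, under QUE SF3A2 and SF3A1 lie highest, and under ETP the points scatter about 0.

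The promoters of 2 SF3 genes are printed because most SF3 windows share the letters CCGGAAG, a core bound by ETS factors. SF3B4 lies on the minus strand at chr1:149927804-149928053 and the match begins 26 bases before its start. SF3A2 lies on the plus strand at chr19:2236574-2236823 and the match begins 9 bases before its start. The build, window and direction are those given for SRSF7, and the match is in capitals.
SF3B4: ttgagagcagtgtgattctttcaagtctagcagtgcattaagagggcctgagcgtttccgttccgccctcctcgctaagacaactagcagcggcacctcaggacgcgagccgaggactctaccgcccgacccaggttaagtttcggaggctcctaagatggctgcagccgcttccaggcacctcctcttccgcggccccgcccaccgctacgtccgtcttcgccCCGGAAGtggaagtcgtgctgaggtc
SF3A2: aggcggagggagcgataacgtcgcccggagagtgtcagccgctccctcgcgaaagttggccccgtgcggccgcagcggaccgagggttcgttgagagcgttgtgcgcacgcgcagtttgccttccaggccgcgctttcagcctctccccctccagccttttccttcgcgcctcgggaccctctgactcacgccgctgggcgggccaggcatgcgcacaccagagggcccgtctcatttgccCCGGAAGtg
CCGGAAG on either strand was in 6 of the 8 SF3 genes with a window, in 6 of the 37 other genes, in 8.5% of all windows and in 10.2% of all genes. None of the 8 SF3 windows held TATAAA on the gene strand. The wider CCAAT, a box bound by NF-Y, was in 20 of the 45 genes on either strand and in 32% of all windows (37% of all genes). CACGTG, an E-box, was in 9 of the 45 and in 6.3% of all windows (7.7% of all genes). These letters too were chosen after the values had been seen.

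The responses at the highest doses were then compared between chemicals by testing the difference of the changes, each against its own vehicle. The doses differ, so a difference may be one of dose. Against ETP 3 µM, MMS 500 µM gave higher changes in 5 genes (30.5% of all genes were called in either direction): SF3B4 by 0.84, SF3B3 by 0.70 and SF3A2 by 0.60, and the hnRNP genes HNRNPA0 by 0.74 and HNRNPF by 0.65. In the fit blocked by replicate number TRA2A was called as well, lower by 0.64 under MMS. With number 2 kept SF3A2 was not called.

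Against QUE 100 µM, MMS 500 µM gave higher changes in 9 genes and lower changes in 3 (28.2% of all genes were called). The 9 were HNRNPAB (1.06), TRA2A (0.94), SRSF2 (0.82), SRSF3 (0.79), SRSF7 (0.78), SRSF8 (0.76), SF3B3 (0.72), HNRNPU (0.69) and HNRNPH2 (0.63). The 3 were HNRNPA1L2 (-1.12), CLK3 (-0.82) and CLK1 (-0.62). Without QUE number 3 the calls of CLK1 and CLK3 were lost and HNRNPA3, HNRNPDL, HNRNPF and SF3B4 were called, 14 in all (29.2% of all genes). With number 2 kept 10 were left, without CLK1 and TRA2A, and with the block CLK4 was added.

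QUE 100 µM differed from ETP 3 µM in 8 genes, 3 higher and 5 lower (23.4% of all genes were called). TRA2A differed most, by -1.58 (SE 0.35, adjusted p = 1.7e-04), then SRSF8 by -0.83, HNRNPAB by -0.70, SRSF2 by -0.68 and HNRNPA2B1 by -0.59. HNRNPA1L2 was higher under QUE by 1.16, CLK3 by 0.81 and SF3A2 by 0.80. With the arrays numbered 2 kept as labelled 0 of the 49 were called, and TRA2A differed by -1.03 (adjusted p = 0.17 by limma). The share of all genes called in that fit was not worked out, so the 0 is no result about these genes in particular. This comparison rests on leaving those arrays out. Without QUE number 3, 7 were called (26% of all genes): CLK3 and HNRNPAB were lost and SRSF9 was added.

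The genes were measured by 137 kept probe sets, and 39 genes had more than 1. Each gene's value above is that of its probe set with the highest mean, and the others are given here since these genes make several transcripts. At ETP 3 µM 23 of the 137 probe sets were called lower and 0 higher (11.7% of all 27102 probe sets were called), at MMS 500 µM 18 lower and 3 higher (31%), and at QUE 100 µM 40 lower and 5 higher (28%). No gene had probe sets called in both directions at any of these doses. The genes named in this account of probe sets were picked after their values had been seen.

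Some genes moved as one over their probe sets. All 4 of HNRNPH3 were called lower at ETP 3 µM, between -0.67 and -0.73. All 3 of SRSF2 were called lower at QUE 100 µM, at -1.19, -1.38 and -1.32, and 4 of 5 of SRSF3, at -0.92, -1.31, -1.25 and -1.51, with the fifth at -0.32. The 3 probe sets of TRA2A read -1.40, -0.80 and -0.72 at QUE 100 µM. At MMS 500 µM the brightest of TRA2A, at -0.46, was the only one of its probe sets not called; the others were at -0.91 and -1.20.

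Other genes were split or differed in size over their probe sets. For HNRNPA2B1, the brightest probe set read -1.21 at QUE 100 µM while its other probe sets read 0.01 and 0.47; at MMS 500 µM they read -0.92, 0.07 and -0.74. For HNRNPA3 the values at QUE 100 µM were -0.96, -1.72 and 0.04. SRSF11 had 1 of 3 probe sets called lower at ETP 3 µM (-0.60) and 1 called higher at QUE 100 µM (0.87). SF3B6 had 1 of 2 called higher at QUE 100 µM (0.74). HNRNPU was below 0 in all 6 of its probe sets at QUE 100 µM and 5 were called lower, but they ran from -0.13 to -2.44. There 1 probe set of HNRNPDL, a relative of HNRNPD, read -2.41 while the gene's brightest was not called. A probe set of HNRNPR was called under all 3 chemicals, at -1.45 under ETP, -2.13 under MMS and -0.76 under QUE, and another of SF3B3 rose by 1.48 at MMS 500 µM. With the mean of the kept probe sets in place of the brightest, HNRNPA2B1 was not called at MMS 500 µM (-0.53) or QUE 100 µM (-0.25, adjusted p = 0.16). By that mean HNRNPA3 (-0.51), HNRNPD (-0.40) and SRSF7 (-0.50) were not called under ETP 3 µM, while HNRNPR, SRSF1 and TRA2B were. The 3 probe sets of SRSF7 ran from -0.76 to -0.02 there. At QUE 100 µM SRSF9 and TRA2B were also lost by that mean, and HNRNPDL and SRSF10 were added. Of the 3 probe sets of TRA2B, 2 were called lower at ETP 3 µM, 1 at MMS 500 µM and 1 at QUE 100 µM.

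**Figure D5:**
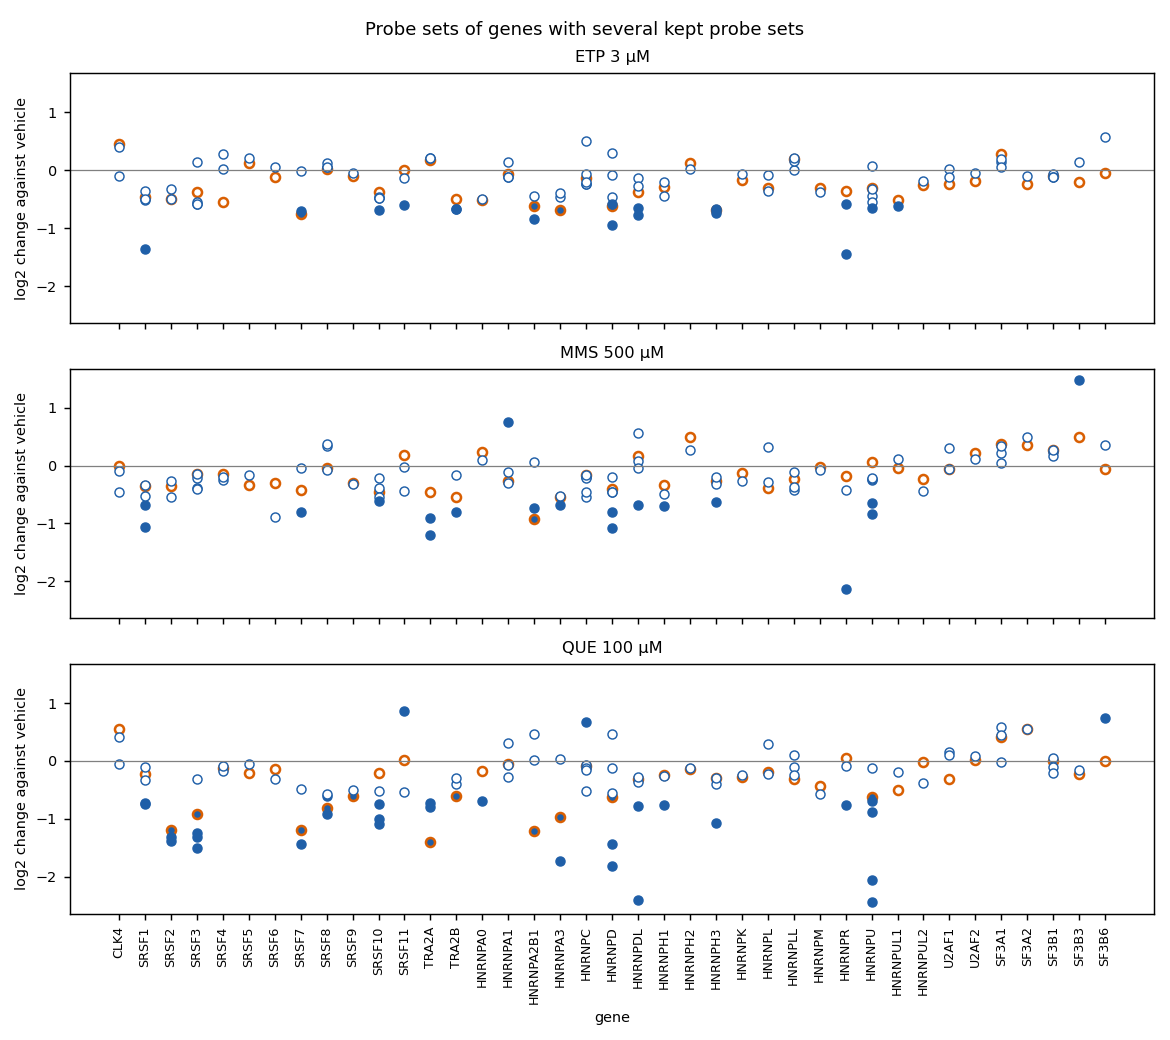
Change against vehicle on the log2 scale of each kept probe set of the 39 genes with several, one panel per chemical at its highest dose; filled points are called probe sets and orange outlines mark the probe set used for the gene. Several genes, among them HNRNPA2B1, HNRNPD and HNRNPU at QUE 100 µM, spread over more than 1 log2 unit.

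The snRNP, SR-related, other RNA-binding and decay genes were set beside these in the same fits. In either direction 13.2% of all genes were called at ETP 3 µM, 34.6% at MMS 500 µM and 27.6% at QUE 100 µM. Of 31 measured genes of the spliceosomal snRNPs, 0 were called higher and 1 lower at ETP 3 µM (LSM6, -0.81), 2 higher and 1 lower at MMS 500 µM (PRPF4 0.85, PRPF6 0.63 and LSM4 -0.97), and 2 higher and 3 lower at QUE 100 µM, SNRNP27 at 0.82 and SNRPA1 at -0.79 the largest. Of 21 measured SR-related genes and SR kinases, 0 were called at ETP 3 µM, and 5 passed lower, where 20.5% of all genes did. At MMS 500 µM 4 were called higher and 1 lower, with ZRSR2, a U2AF-related protein of the minor spliceosome, at 0.98 and PNN at -0.60. At QUE 100 µM 1 was called (ZRSR2, 0.82).

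Of 27 measured other RNA-binding splicing regulators, 1 was called higher and 7 lower at MMS 500 µM, with the muscleblind genes MBNL2 at -1.88 and MBNL1 at -1.17; 1 was called at ETP 3 µM (KHDRBS3, -1.11) and 4 at QUE 100 µM, all lower, with TIA1 at -0.90. Of 12 measured genes of nonsense-mediated decay and the exon junction complex, 7 were called higher and 1 lower at MMS 500 µM, with a median change of 0.63 (17.7% of all genes were called higher and 16.9% lower); SMG8 (1.44) and SMG5 (1.36), which act on or beside the decay factor UPF1, were the largest and MAGOHB fell by 0.67. At QUE 100 µM 2 of the 12 rose, SMG9 by 0.93 and UPF1 by 0.64, and at ETP 3 µM MAGOHB alone was called, at -0.86.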

How the data were processed

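Total RNA was hybridised to human Affymetrix arrays. The authors deposited log2 values per probe set, made with GCRMA in Partek per the submitters' processing notes (versions and build not given in the sources used here). GCRMA evens out arrays, so a change is relative to the other probes. Of 54613 probe sets, 40914 had 1 gene symbol in the platform annotation, 864 several and 12835 none; only the first kind was used. A probe set was kept with a log2 value of 4 or more in 5 arrays, and each gene took its probe set with the highest mean. Arrays with the same number in a group were averaged (3 cases). Fits used limma 3.58.1 in R 4.3.3 (lmFit, then eBayes with trend on), over the 8 groups of a chemical, with no replicate block. The fits were tested on simulated data first. Same-numbered samples deviated together in every ETP group, in MMS at 1 to 300 µM and in QUE at 1 to 30 µM (lowest correlation with the vehicle array of that number 0.15). In MMS 500 µM and QUE 60, 80 and 100 µM only some numbers did. The lowest correlations there were -0.01, 0.06, 0.07 and 0.06, and the highest 0.46, 0.42, 0.33 and 0.35. Alternatives were the block, all arrays as labelled, other filters, the mean of probe sets, quantile normalization, no trend, leaving out arrays by title suffix and leaving out each replicate. Genes were named in full where called against vehicle; every array's values are given for up to 4 called genes per direction at each highest dose, and the 3 genes with the smallest change there are named. Genes called only between chemicals, SF3 genes, CLK4 and probe sets were singled out after their values were seen. The genes, lists and arrays left out were chosen with earlier results of these data known. No protein sequences were used here.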

Additional observations from a re-analysis of the deposited data

Results flagged for a closer look

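Among the 42 sets of replicates of called genes tested for a single distant sample, 1 had one, and chance alone gives about 1 in 20: HNRNPA3 read 9.87 in QUE vehicle number 4, below the other 4 vehicle arrays at 10.14 to 10.21. The overlap of HNRNPA3 between vehicle and QUE 100 µM includes that array. Its title carries the suffix nf, as do some titles at QUE 100 µM, and the labels do not explain the suffix.

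The arrays left out of the comparisons held a signal as well. In the array labelled ETP 3 µM number 2, TRA2A read 6.74 and CLK3 9.24, against 8.19 and 8.60 in the ETP vehicle array of that number. These arrays were left out because their change over all genes was like that of the other chemical, so the values are no separate sign of it. Whether labels or samples were exchanged was not tested.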

How the results depend on the processing

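At the highest dose of each chemical no called change turned its direction under any alternative run. At other doses, and between doses or chemicals, direction was not followed gene by gene in every run. Some changes that were not called did cross 0. TRA2A at ETP 3 µM was 0.18, and -0.10 with all arrays as labelled. Without 1 replicate HNRNPM at MMS 500 µM (-0.03) ran from -0.14 to 0.08, and SRSF8 at ETP 3 µM (0.02) from -0.06 to 0.10. Of the counts of called genes, 6 moved by over 1.5 times outside the runs that leave out 1 replicate. With all arrays as labelled, QUE 30 µM had 3 genes in place of 5 and QUE against ETP 0 in place of 8. With the mean of the kept probe sets, MMS 500 µM had 5 in place of 2. Without the arrays with a title suffix, the step from QUE 30 to 100 µM had 3 in place of 0. Without QUE number 3, chosen after the data were seen, QUE 30 µM had 3 and the step 5 (17.1% and 7.96% of all genes). The replicate block left the calls against vehicle as they were and gave 6 in place of 5 for MMS against ETP and 13 in place of 12 for MMS against QUE.

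Leaving out 1 replicate gave 0 to 1 at ETP 0.1 µM (SRSF7), 0 to 1 at 0.3 µM, 3 to 4 at 1 µM and 4 to 6 at 3 µM; 2 to 4 at MMS 500 µM and 1 to 3 in its step from 300 µM; and 2 to 7, 9 to 12, 10 to 15 and 11 to 17 at QUE 30, 60, 80 and 100 µM, with 0 to 4 in the step. Between chemicals it gave 4 to 6 for MMS against ETP, 10 to 13 for MMS against QUE and 5 to 9 for QUE against ETP. The lowest count at QUE 30 µM came without 30 µM number 3 and the highest without 30 µM number 1; that of QUE against ETP came without QUE vehicle number 1 or 100 µM number 4; the highest at MMS 500 µM came without vehicle number 5 or 500 µM number 6, and the highest of the QUE step without 100 µM number 1. With quantile normalization HNRNPD (-0.58), HNRNPU (-0.58) and TRA2B (-0.56) fell short of 1.5-fold at QUE 100 µM. Signal near background limits SRSF12, and the array cannot separate near-identical copies.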
